A study of Mus musculus with 7 samples.

Results

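The 10 enzymes described here make serine, pass it on to glycine and move its carbon through folate: Phgdh, Psat1, Psph, Shmt1, Shmt2, Mthfd1, Mthfd2, Mthfd1l, Aldh1l2 and Gldc. They were chosen by name for their place in the pathway, with earlier results of these data known. They are 10 of 50600 genes in a bulk RNA sequencing table and 10 of 15536 genes in a single-cell table. All 10 were present in both tables and passed the filter on low values in each. The bulk libraries were 4 cultures of neural stem and progenitor cells (NSPCs) grown from the dentate gyrus (DG), the part of the hippocampus that makes neurons in the adult, and 2 whole DGs. The cultures came from 6 to 8 week old C57Bl6J mice, 2 female (F1, F2) and 2 male (M1, M2), and were used between passages 6 and 15. They were grown on poly-d-lysine and laminin in neurobasal A medium with B27 lacking vitamin A, glutaMAX, and EGF and FGF2 at 20 ng/ml each. The whole DGs came from 1 female (F1) and 1 male (M2) C57Bl6J mouse aged 7 to 9 weeks. A further droplet library mixed cells of 3 NSPC cultures, 2 female and 1 male, from mice of 6 to 9 weeks at passages 6 to 15. Those cultures also had EGF and FGF2 at 20 ng/ml each, and the library's cells carry the authors' cluster numbers 0 to 5.

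Phgdh, Psat1 and Psph turn a glycolytic intermediate into serine in 3 steps. The serine hydroxymethyltransferases Shmt1 (cytosol) and Shmt2 (mitochondria) then move one carbon from serine to tetrahydrofolate, which leaves glycine. Folate enzymes in mitochondria and cytosol carry that carbon on as formate to purine and thymidylate synthesis. Glycine decarboxylase, Gldc, breaks glycine down in mitochondria as part of the glycine cleavage system, which also loads a carbon onto folate. In the adult brain serine synthesis is known chiefly from astrocytes and radial glia, and in proliferating cells several of these genes are known targets of the transcription factor ATF4, which answers amino acid shortage.

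Promoter windows of 300 bases, from 250 before to 50 after the start, were found in RefSeq (GRCm38.p6) for 9 of the 10 genes, 10 windows in all. The 4 below belong to the genes whose levels differed most between clusters of cells, among those with a window, and Phgdh as the most abundant. Capitals mark CCAAT, the CCAAT box, on either strand (ATTGG on the strand shown).
Phgdh, chr3:98339920-98340219, minus strand: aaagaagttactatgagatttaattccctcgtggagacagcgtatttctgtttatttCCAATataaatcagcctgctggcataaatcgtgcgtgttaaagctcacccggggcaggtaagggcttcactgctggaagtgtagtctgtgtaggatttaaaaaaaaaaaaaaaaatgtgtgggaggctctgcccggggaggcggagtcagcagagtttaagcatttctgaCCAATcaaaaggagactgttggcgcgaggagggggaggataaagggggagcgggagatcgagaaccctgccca
Psph, chr5:129787204-129787503, minus strand: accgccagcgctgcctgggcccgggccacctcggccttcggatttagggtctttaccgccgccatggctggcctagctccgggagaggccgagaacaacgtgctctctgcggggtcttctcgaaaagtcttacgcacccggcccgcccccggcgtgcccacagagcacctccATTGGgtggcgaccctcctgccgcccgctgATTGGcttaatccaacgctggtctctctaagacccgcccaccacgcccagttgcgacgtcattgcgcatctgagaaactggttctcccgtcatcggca
Mthfd2, chr6:83317555-83317854, minus strand: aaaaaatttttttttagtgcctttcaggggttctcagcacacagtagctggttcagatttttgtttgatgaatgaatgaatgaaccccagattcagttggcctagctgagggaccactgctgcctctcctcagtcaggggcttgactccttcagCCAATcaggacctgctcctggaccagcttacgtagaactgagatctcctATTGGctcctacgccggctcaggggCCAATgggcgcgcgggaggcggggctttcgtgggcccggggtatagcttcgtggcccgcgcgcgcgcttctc
Shmt1, chr11:60811216-60811515, minus strand: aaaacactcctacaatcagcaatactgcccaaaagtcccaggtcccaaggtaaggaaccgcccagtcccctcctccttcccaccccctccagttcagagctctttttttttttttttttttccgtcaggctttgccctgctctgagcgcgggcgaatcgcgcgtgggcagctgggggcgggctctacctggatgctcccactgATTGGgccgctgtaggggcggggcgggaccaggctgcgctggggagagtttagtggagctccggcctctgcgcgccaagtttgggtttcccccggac
CCAAT was found in 7 of the 10 windows and in 37.4% of all 32851 promoter windows of that length. The letters TGATGNAA, of the element bound by C/EBP and ATF factors, were in 0 of the 10 windows and in 3.97% of all. The E-box CACGTG was in 0 of the 10 and in 7.15% of all. Both strands were searched for each motif. These are matches of letters in these windows only.

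Library totals were 9917697 to 11747408 counts in the cultures, against 16676618 and 17351636 in whole DG. Culture libraries were made with a SMART-Seq HT kit and whole DG libraries with an NEBNext Ultra II Directional kit, so kit and group cannot be told apart. Among 18088 genes tested, 77.3% had an adjusted p under 0.05 (edgeR's quasi-likelihood test, Benjamini-Hochberg), 35.6% as higher and 41.7% as lower in cultures. Whole DG holds neurons and glia: summed over 5 neuron markers, cultures held 33.6 to 39.3 CPM (counts scaled to 1000000 per library), against 8063 to 8553 CPM in whole DG. In bulk tissue, fewer cells of a type and less RNA per cell cannot be told apart. Of 7 NSPC markers, 5 were higher in cultures and Sox2 and Hes5 were lower. Sox2 had 5.29 to 7.85 CPM in the bulk cultures, against 37.0 and 35.7 CPM in whole DG, and 168 CPM in the single-cell library of NSPC cultures, which counts unique molecules (UMIs) and is on another scale. All 6 mitosis markers were higher and summed to 636 to 1455 CPM in cultures, against 16.7 and 16.97 CPM in whole DG; their part in the differences of the enzymes was not tested. All 15 markers of oligodendrocytes, microglia and endothelium were lower in cultures, where Aif1 and Cldn5 had no counts. Of 4 oligodendrocyte precursor markers, Sox10, with no counts in cultures, and Pdgfra were lower, Cspg4 was higher and Olig2 was not called. These 4 markers summed to 94.7 to 249 CPM in cultures, against 111 and 115 CPM in whole DG. Prox1, which marks granule neurons, had 26.4 to 32.6 CPM in cultures, against 348 and 376 CPM in whole DG. The labels call the cultures separate primary cultures, so a p-value reflects the scatter among 4 cultures and between 2 mice.

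All 3 enzymes of serine synthesis were higher in cultures than in whole DG, by 3.86 to 9.95 times. Phgdh, the first and committed step (chromosome 3, 98313170 to 98339990, minus strand, GRCm38), had 848, 669.7, 659 and 949 CPM in cultures F1, F2, M1 and M2, against 76.2 and 80.8 CPM in whole DG F1 and M2. Every culture lay far above both tissue libraries. The log2 difference was 3.31 ± 0.21 (SE; adjusted p = 2.7e-06, edgeR). Phgdh has many near-identical processed pseudogenes, and 15 copies listed in the table held 1175 counts over the cultures and 52 over whole DG, or 3.40% and 2.07% of the Phgdh counts. With their counts added, an alternative chosen after seeing the data, the log2 difference was 3.33. No source used here says how reads shared with these copies were counted.

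Psat1, the aminotransferase of the second step (chromosome 19, 15904678 to 15947337, minus strand), had 519.7, 373, 517 and 527 CPM in cultures F1, F2, M1 and M2, against 92.9 and 85.8 CPM in whole DG F1 and M2. Culture F2 stood below the other 3, which lay close together, and all 4 were above both DGs. The log2 difference was 2.44 ± 0.19 (SE; adjusted p = 7.9e-06, edgeR). Psph, the phosphatase that releases free serine (chromosome 5, 129765558 to 129787449, minus strand), had 80.1, 65.4, 97.0 and 78.7 CPM in the same cultures, against 22.4 and 19.2 CPM in whole DG. The groups did not overlap, and the log2 difference of 1.95 ± 0.19 (SE; adjusted p = 3.2e-05, edgeR) was the smallest of the 9 enzymes that were higher. Psph shares 452 of its 4329 exon bases with Cct6a on the other strand, which held 28398 counts over the cultures and 4986 over whole DG. No source used here says whether strand was used in counting, and the 2 groups differed in library kit. The Psph values are uncertain to that extent.

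Both hydroxymethyltransferases were higher in cultures, by 9.81 times for Shmt1 and 9.03 times for Shmt2. Cytosolic Shmt1 (chromosome 11, 60788104 to 60811718, minus strand) had 104, 97.3, 73.9 and 90.2 CPM in cultures F1, F2, M1 and M2, against 10.1 and 8.52 CPM in whole DG F1 and M2. Mitochondrial Shmt2 (chromosome 10, 127517123 to 127522444, minus strand) had 231, 155, 196 and 223 CPM in cultures, against 19.8 and 24.9 CPM in whole DG. In both genes the lowest culture was several times the higher tissue library. The log2 difference was 3.29 ± 0.20 for Shmt1 (adjusted p = 2.3e-06) and 3.17 ± 0.22 for Shmt2 (SE; adjusted p = 4.5e-06, edgeR). With length and GC trends removed, a setting that also re-centred each library, they were 3.80 for Shmt1 and 4.45 for Shmt2. The difference between the genes was not tested. Shmt1 shares 184 of 3883 exon bases with Smcr8, and Shmt2 shares 32 of 3109 with Ndufa4l2, both on the other strand.

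The 4 folate enzymes were higher in cultures, with the 3 mitochondrial ones ahead of the cytosolic one in fold, a difference that was not tested. Mthfd2, the mitochondrial dehydrogenase and cyclohydrolase known for its rise in proliferating and tumour cells (chromosome 6, 83305691 to 83325908, minus strand), had 91.9, 68.4, 57.3 and 101 CPM in cultures F1, F2, M1 and M2, against 5.62 and 4.80 CPM in whole DG F1 and M2. Its mean was 15.3 times higher in cultures, the largest fold of the 10 enzymes in this fit, with a log2 difference of 3.93 ± 0.30 (SE; adjusted p = 6.9e-06, edgeR). With length and GC trends removed it was at 4.43, just below Phgdh, Shmt2 and Aldh1l2. Mthfd2l, its paralog, named here as a leader of the folate list in single cells, had 17.9 to 26.6 CPM in cultures, against 8.39 and 8.97 CPM in whole DG, a log2 difference of 1.25 ± 0.23 (SE; adjusted p = 0.0013, edgeR).

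Mthfd1l, which makes formate in mitochondria (chromosome 10, 3973118 to 4167081, plus strand), had 94.7, 97.0, 66.7 and 76.5 CPM in cultures F1, F2, M1 and M2, against 13.8 and 12.2 CPM in whole DG F1 and M2. The log2 difference was 2.69 ± 0.21 (SE; adjusted p = 8.4e-06, edgeR). Mthfd1, the cytosolic enzyme with 3 activities that receives formate (chromosome 12, 76255298 to 76319803, plus strand), had 236, 238, 178 and 172 CPM in cultures, against 48.2 CPM in each whole DG. For both genes the female cultures had the higher values, but the sexes did not differ past the threshold, as described further on. The log2 difference of Mthfd1 from tissue was 2.09 ± 0.19 (SE; adjusted p = 1.9e-05, edgeR).

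Aldh1l2, which oxidises formyl-tetrahydrofolate in mitochondria and yields NADPH (chromosome 10, 83487450 to 83534140, minus strand), varied most among cultures: 65.9, 26.5, 70.2 and 79.2 CPM in F1, F2, M1 and M2, against 5.87 and 4.50 CPM in whole DG F1 and M2. Culture F2 was well below the other 3 cultures and still above both DGs. The log2 difference was 3.54 ± 0.47 (SE; adjusted p = 0.00019, edgeR), with the largest standard error of the 10. It was 3.80 without culture F2. Aldh1l2 shares 1056 of 7503 exon bases with D10Wsu102e on the other strand, which held 3952 counts over the cultures and 1338 over whole DG. The Aldh1l2 values are uncertain in the same way as those of Psph.

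Gldc was the exception. Glycine decarboxylase (chromosome 19, 30098447 to 30175429, minus strand) had 13.6, 12.7, 14.3 and 10.1 CPM in cultures F1, F2, M1 and M2, against 63.3 and 61.6 CPM in whole DG F1 and M2. Every culture lay below both tissue libraries, and the log2 difference was -2.30 ± 0.17 (SE; adjusted p = 5.6e-06, edgeR). Of its 3 partners in the glycine cleavage system, the aminomethyltransferase Amt was also lower, with 5.70 to 7.51 CPM in cultures, against 26.3 and 30.4 CPM in whole DG (log2 difference -2.11 ± 0.19, SE; adjusted p = 2.0e-05, edgeR). The carrier Gcsh was higher, with 101 to 126 CPM in cultures, against 48.0 and 43.7 CPM in whole DG (1.30 ± 0.14; adjusted p = 5.6e-05). Dld, the dehydrogenase it shares with other mitochondrial complexes, was higher by 0.59 ± 0.14 (SE; adjusted p = 0.0055, edgeR). Astrocytes, which are known for glycine cleavage in the brain, were among the cells that whole DG holds: the 6 astrocyte markers summed to 392 to 906 CPM in cultures, against 3562 to 4101 CPM in whole DG, and 4 of the 6 were lower. Their part in the Gldc and Amt values was not tested.

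**Figure D1:**
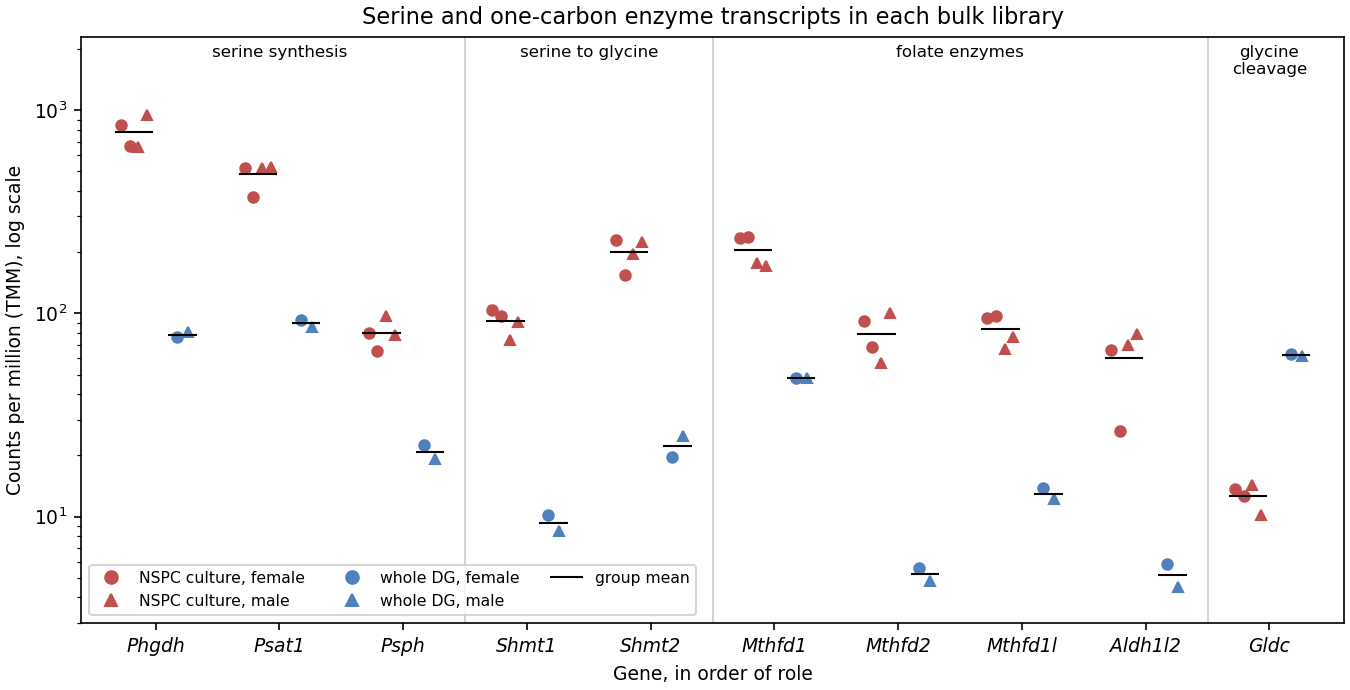
CPM of each enzyme in each bulk library on a log scale, cultures in red on the left and whole DG in blue on the right of each gene, with circles for females, triangles for males and a line at each group's mean. Red points lie above both blue points for 9 genes and below them for Gldc, and culture F2 is low for Aldh1l2. How many of all genes are separated in this way was not counted.

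Together, 9 of the 10 enzymes were higher and 1 lower, beside 35.6% and 41.7% of all genes tested. Against a fold of 2 (edgeR's glmTreat) the same 9 and 1 passed, beside 20.3% of all genes higher and 31.9% lower. The median log2 difference of the 10 was 2.93, beside -0.13 over all genes tested. Removing trends with transcript length and GC content moved the median of all genes to 0.51. That setting also re-centred each library on its mean log level over genes, so its shifts combine scaling with length and GC. The 9 enzymes then had log2 differences of 2.48 (Psph) to 4.45 (Phgdh), all past 0.05, while Gldc was at -1.23, past 0.05 but not past the 2-fold test. In the annotation, 9 of the 10 genes overlap another gene and 5 share exon bases with one. Overlap was common: without overlapping genes and those not in the annotation, 7207 genes were tested, beside 18088 with them.

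Expressed per kilobase of annotated exon (RPKM), the order of levels in cultures was led by Phgdh at 314 ± 56.9 RPKM and Psat1 at 114 ± 17.4 RPKM (SD, n = 4). Shmt2 (64.8 ± 11.1) and Mthfd1 (46.3 ± 8.09) followed, with ranges over cultures that overlapped. Shmt1 (23.5), Mthfd2 (22.8), Mthfd1l (18.9) and Psph (18.5 RPKM) each overlapped their neighbour in the order and did not differ beyond their spread. Aldh1l2 (8.06 RPKM) and Gldc (2.08 RPKM) came last, each apart from its neighbours. In whole DG Phgdh (31.6 RPKM) and Psat1 (21.0 RPKM) also led, and Gldc, at 10.3 RPKM, stood beside Mthfd1 at 10.8 RPKM and above Shmt2 at 7.18 RPKM. Psph (4.81), Mthfd1l (2.92), Shmt1 (2.40), Mthfd2 (1.49) and Aldh1l2 (0.69 RPKM) followed, and no neighbours in this order overlapped over the 2 tissue libraries. Gldc thus held the last place of 10 in cultures and the fourth in whole DG.

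Around the 10 enzymes, 77 genes in 7 lists covered the neighbouring pathways, 75 of them tested: 47 were higher and 13 lower in cultures, beside 35.6% and 41.7% of all genes tested. The shares higher in the transport, methionine and ATF4 lists lay nearest to that background. Of 12 folate cycle and transport genes, 9 were higher and 1 lower, with a median log2 difference of 1.52. Thymidylate synthase Tyms, which spends a folate carbon on DNA precursors, had 67.9 to 119 CPM in cultures, against 2.52 and 2.43 CPM in whole DG (log2 difference 5.30 ± 0.30, SE; adjusted p = 1.5e-06, edgeR). The folate hydrolase Ggh was higher by 2.42 ± 0.23. Aldh1l1, the cytosolic counterpart of Aldh1l2 and a known astrocyte marker, spread widely, with 177, 493, 403 and 79.0 CPM in cultures F1, F2, M1 and M2, against 51.8 and 46.7 CPM in whole DG (2.55 ± 0.69, SE; adjusted p = 0.0092, edgeR). It lost its call when either DG library was left out, at 2.62 without F1 and 2.47 without M2, and when genes of low counts were kept in.

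Of 13 purine synthesis genes, 8 were higher and 2 lower, with a median log2 difference of 1.24. The most abundant were Paics (262 to 304 CPM in cultures, against 99.2 and 97.1 CPM in whole DG), Gmps and Impdh2, the last 2 with log2 differences of 1.24 ± 0.15 and 1.64 ± 0.17 (SE). Those lower were Atic (-0.83 ± 0.18) and the muscle-type Adssl1 (-2.07 ± 0.51, SE). Atic, whose step uses a folate carbon, was at 0.20, short of the threshold, with the length and GC trends removed, so its direction depends on that setting.

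Of 12 genes that transport or use serine and glycine, 6 were higher and 3 lower, with a median log2 difference of 0.71. Slc38a2, an amino acid transporter, was higher by 1.33 ± 0.17, and Sfxn1, which carries serine into mitochondria, by 2.39 ± 0.13 (SE). Sfxn1 had 224 to 254 CPM in cultures, against 44.6 and 45.1 CPM in whole DG, and Slc38a2 170.4 to 248 CPM in cultures, against 86.4 and 83.0 CPM in whole DG. Slc7a10, a neutral amino acid transporter that moves D-serine and glycine in brain, had 0.66 to 1.05 CPM in cultures, against 22.9 and 22.3 CPM in whole DG (-4.70 ± 0.26, SE; adjusted p = 1.3e-06, edgeR). Serine racemase Srr, which makes the NMDA receptor co-agonist D-serine, was lower by a log2 difference of -0.63 ± 0.12 (SE; adjusted p = 0.0016, edgeR). It was at -0.20, short of the threshold, with the length and GC trends removed. Sdsl, a serine dehydratase-like gene, was at -1.88 ± 0.62 (adjusted p = 0.022) and lost its call without culture F1 or without either DG library. Of 9 methionine cycle genes 5 were higher, led in abundance by Mat2a, which makes S-adenosylmethionine (1.96 ± 0.18), and Ahcyl1 (-2.14 ± 0.24), Ahcyl2 (-2.50 ± 0.22) and Mat2b (-0.73 ± 0.11, SE) were lower. Mat2b lost its call with the length and GC trends removed, at -0.30.

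The ATF4 list, 15 genes with none of the 10 enzymes among them, gave 7 higher, 3 lower and 5 not called, with a median log2 difference of 0.27. Its most abundant genes were Slc3a2 and Slc7a5, which together form a large neutral amino acid exchanger, and asparagine synthetase Asns. They were higher by 2.52 ± 0.17, 2.49 ± 0.20 and 1.81 ± 0.36 (SE), and some less abundant genes of the list by more. Atf4 itself, named here after its values were seen, had 55.1 to 87.8 CPM in cultures, against 87.3 and 78.2 CPM in whole DG, and did not pass the threshold (log2 difference -0.18 ± 0.19, SE; adjusted p = 0.40, edgeR). With the length and GC trends removed it was at 0.69 and past the threshold, so no direction is given for it. Lower were Atf5 (-2.74 ± 0.24), Ddit3 (-0.71 ± 0.20, SE) and Cebpb, the last with 0 to 0.20 CPM in cultures, against 28.3 and 34.7 CPM in whole DG. The single-cell library of NSPC cultures did hold both Cebpb and Atf5, at 26.7 and 81.5 CPM of UMIs, a scale that cannot be set against bulk CPM. The call of Ddit3 was lost without either DG library, at -0.69 without F1 and -0.73 without M2. Asns was low in culture F2, at 152 CPM beside 305 to 395 CPM in the other cultures. Of the 10 enzymes, 4 had their lowest culture value in F2 (Psat1, Psph, Shmt2 and Aldh1l2), 4 in M1 and 2 in M2. In the replication list 10 of 11 genes were higher, and Gins2, named as the exception after its values were seen, did not pass the threshold (-0.10 ± 0.17, SE; adjusted p = 0.60, edgeR), with a median log2 difference of 4.68, above the 2.93 of the 10 enzymes. Rrm2, the ribonucleotide reductase subunit, had 469 to 612 CPM in cultures, against 1.61 and 2.31 CPM in whole DG, and Mcm3 and Mcm6 were higher by 6.01 ± 0.34 and 2.97 ± 0.27 (SE).

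**Figure D2:**
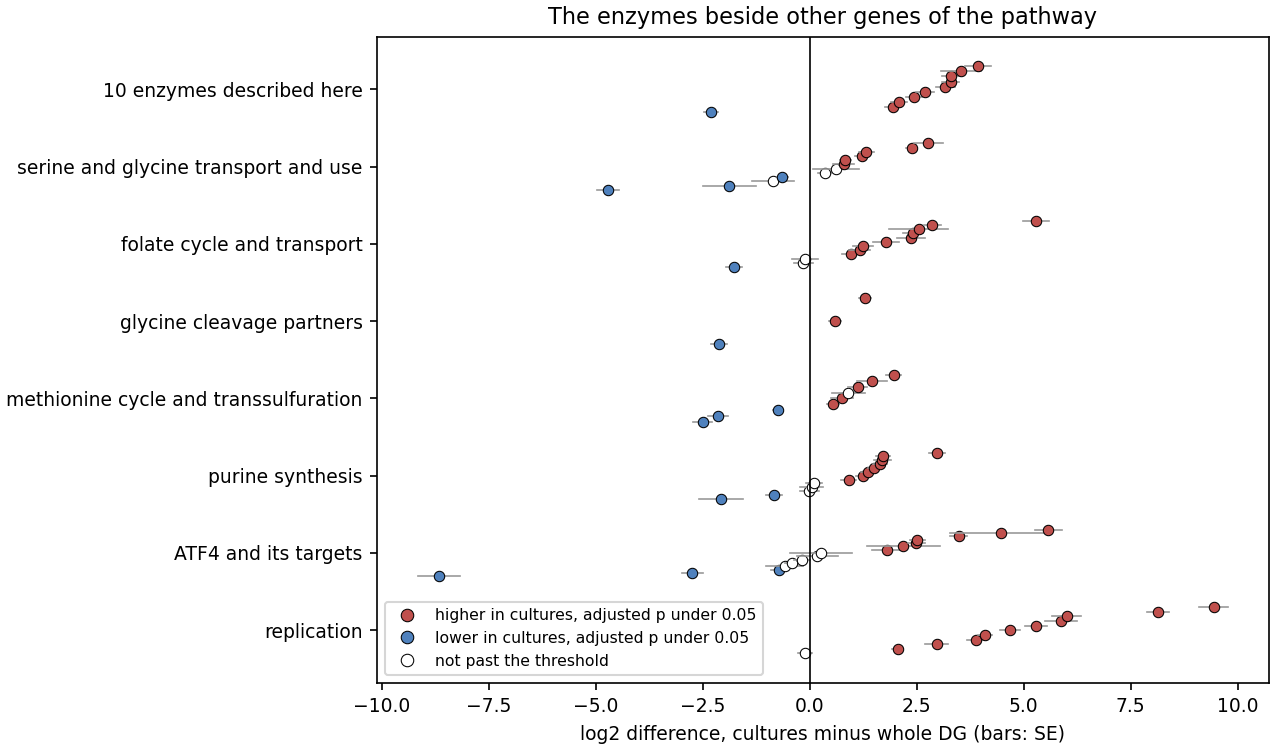
The log2 difference, cultures minus whole DG, of each gene tested, by list, with bars for the standard error, filled points where the adjusted p was under 0.05 and white points elsewhere. Of the 10 enzymes at the top, 9 lie between 1.95 and 3.93 and Gldc lies at -2.30, while the lists of neighbouring pathways hold genes on both sides of 0 and 10 of 11 replication genes lie to the right.

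Between the 2 female and the 2 male cultures, 0 of the 10 enzymes passed the threshold (edgeR), beside 4 of 15140 genes tested, or 0.0264%. At an unadjusted p under 0.05 there were 2 of the 10 and 942 of all genes, and DESeq2 called 0 of the 10 and 60 genes in all. The 2 were Mthfd1, with 236 and 238 CPM in female and 178 and 172 CPM in male cultures (log2 difference 0.43 ± 0.14, SE; adjusted p = 0.75, edgeR), and Mthfd1l (0.41 ± 0.16; adjusted p = 0.78). Aldh1l2 had the largest difference, -0.70 ± 0.41 (SE; adjusted p = 0.83, edgeR). Without culture F1, which leaves the low culture F2 as the only female, it was -1.51 and passed the threshold. The remaining female is assumed there to vary like the males.

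The single-cell library let the same genes be read within cultured cells, across the authors' 6 clusters. It held 14912 cells, 3925, 3297, 3260, 1910, 1428 and 1092 in clusters 0 to 5, with a median of 3431 to 5270.5 UMIs (unique molecules) per cell by cluster and 0 repeated barcodes. UMI counts were recovered from the deposited values and summed by cluster. Levels are UMIs scaled to 1000000 UMIs of the cluster (CPM), with exact Poisson 95% intervals that cover counting error only. The 3 cultures cannot be told apart in this library, so there is 1 sample and no test, and the clusters were themselves drawn from these cells' expression. A fold is the level in a cluster over that of the other 5 clusters together, and 1.5 times either way was taken as a difference worth describing. The 5 neuron markers summed to 15.5 to 19.3 CPM over the 6 clusters, and the 1 of 5 microglia markers listed in the table was at 0.40 to 0.88 CPM. In the whole library the order was Phgdh (474 CPM), Psat1 (242), Psph (130), Mthfd2 (70.6), Shmt2 (65.1), Mthfd1 (41.1), Mthfd1l (33.3), Shmt1 (23.1), Gldc (21.9) and Aldh1l2 (14.9). These are 3' tags, so no gene length enters, and they are on another scale than the bulk values.

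Cluster 5, the smallest, held the highest level of 5 of the 10 enzymes, though the share of all genes that were highest there was not counted. Aldh1l2 was at 33.9 CPM (28.8 to 39.7) there and at 11.1 to 15.4 in clusters 0 to 4, a fold of 2.53 (2.11 to 3.01). Psph was at 259 CPM (244 to 274) there and at 114 to 135 elsewhere, a fold of 2.16 (2.03 to 2.29). Mthfd2 was at 131 CPM (121 to 142), a fold of 1.99 (1.82 to 2.17), with cluster 2 next at 112 CPM. These 3 passed the 1.5-fold rule, beside 2.45% of the 9361 genes with at least 300 UMIs. Phgdh was just under it, at 685 CPM (662 to 710) against 437 to 475 in the other clusters, a fold of 1.498 (1.44 to 1.55). Psat1, the step between Phgdh and Psph, was at 258 CPM in cluster 5, within the 203 to 272 of the other clusters. Of the 3 serine synthesis transcripts, Psph thus passed the rule there and Phgdh was just under it. Psat1 had a fold of 1.07 (1.01 to 1.14).

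Shmt1 went the other way. It was at 8.75 CPM in cluster 5 (6.25 to 11.9; 40 UMIs), a fold of 0.36 (0.26 to 0.49), and was the 1 enzyme of 10 past the rule downwards, beside 14.9% of genes in that cluster. Mthfd1, at 29.1 CPM and a fold of 0.69 (0.58 to 0.82), was just short of it. Shmt2 was at 79.4 CPM in cluster 5, with clusters 4 and 1 close by at 75.7 and 74.9. The cytosolic Shmt1 and Mthfd1 were both at their lowest in cluster 5, with intervals that overlapped those of cluster 0 and, for Mthfd1, also that of cluster 1. The mitochondrial enzymes were not alike there: beside the high Mthfd2 and Aldh1l2, Shmt2 had a fold of 1.24 (1.11 to 1.38), Mthfd1l of 1.12 (0.95 to 1.31) and Gldc of 0.88 (0.70 to 1.09), none past the rule.

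Cluster 2 had the highest Shmt1, at 38.3 CPM (35.3 to 41.5), a fold of 2.12 (1.91 to 2.36). Mthfd2 also stood out there, at 112 CPM (107 to 117), a fold of 1.97 (1.85 to 2.09). They were 2 of 10 enzymes past the rule, beside 6.16% of genes. Mthfd1l was highest in cluster 2 as well, at 41.4 CPM, though its interval of 38.3 to 44.8 overlapped those of clusters 3 and 5. Cluster 0, the largest, had none past the rule upwards, beside 2.86% of genes, and 3 downwards, beside 8.86%. Those were Mthfd2 at 32.3 CPM (fold 0.39, 0.35 to 0.43), Shmt1 at 11.2 (fold 0.42, 0.35 to 0.49) and Shmt2 at 45.6 (fold 0.64, 0.59 to 0.69).

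No enzyme passed the rule upwards in clusters 1, 3 and 4, beside 0.865%, 1.47% and 4.49% of genes. In cluster 1 Mthfd2 passed it downwards at 50.2 CPM, a fold of 0.67 (0.61 to 0.73), beside 4.05% of genes. Mthfd1 was highest in clusters 4 (50.1 CPM) and 2 (49.6), which did not differ beyond their intervals. Gldc was level, at 19.5 to 23.3 CPM, and the intervals of all 6 clusters overlapped.

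**Figure D3:**
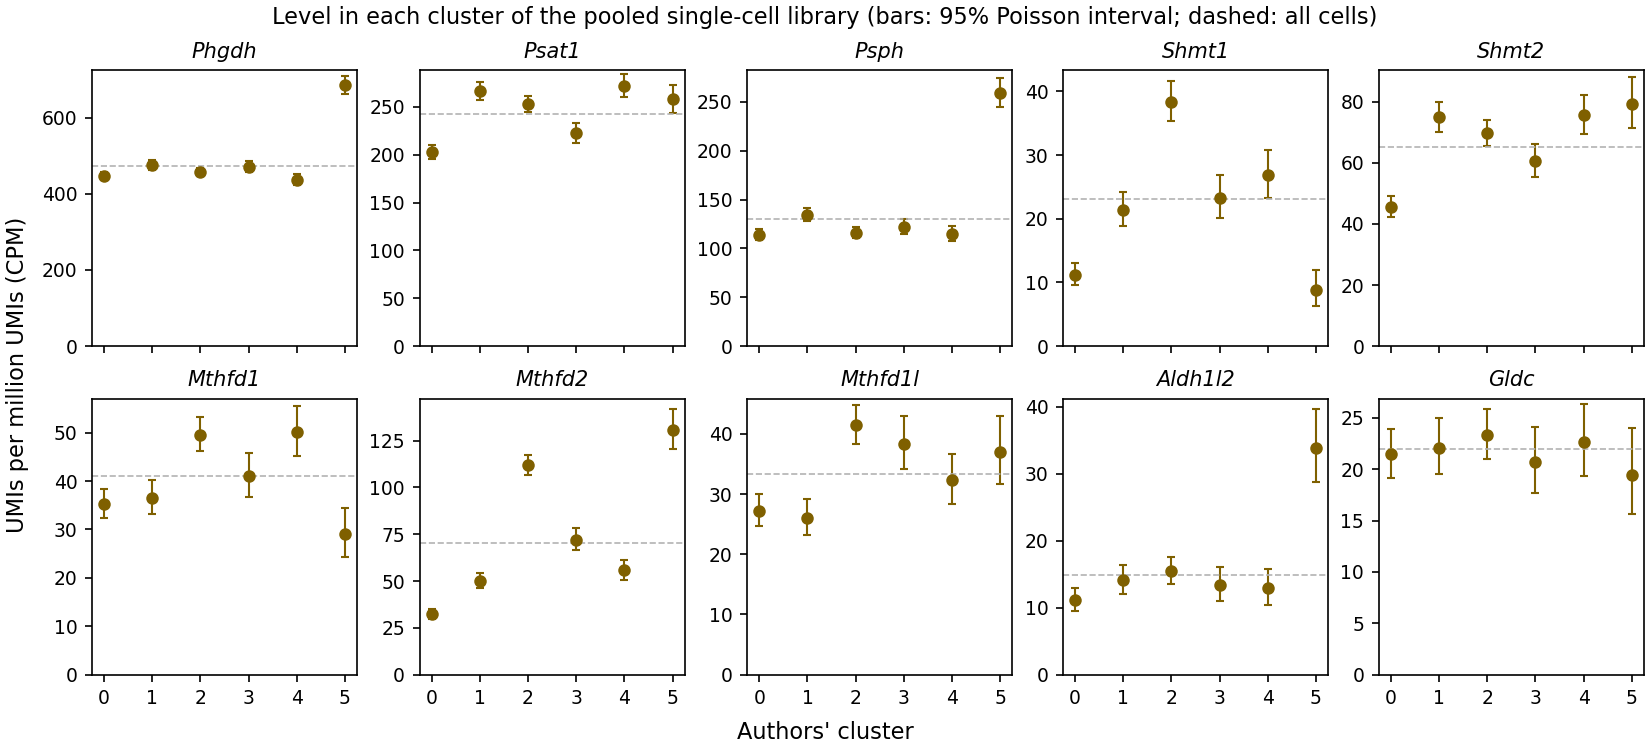
Level of each enzyme in UMIs scaled to 1000000 (CPM) in clusters 0 to 5, with bars for the exact Poisson 95% interval and a dashed line at the level of all cells. Phgdh, Psph and Aldh1l2 stand highest in cluster 5, Mthfd2 in clusters 2 and 5, Shmt1 in cluster 2, and Gldc is flat.

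Other genes of known function also differed between these clusters, which were drawn from the same cells' expression. In cluster 5, 10 of the 12 ATF4-list genes with at least 300 UMIs passed the 1.5-fold rule, beside 2.45% of all such genes. The list summed to 2082 CPM there, against 824 to 991 in clusters 0 to 4. Nupr1, a stress-induced gene, had the highest fold of the 12, 7.37 (6.44 to 8.41). Atf4 itself was at 146 CPM there, a fold of 1.85, and Asns at 299 CPM, a fold of 2.35. Cth, the last enzyme of transsulfuration, which makes cysteine with the carbons of serine, was at 45.7 CPM, a fold of 6.71 (5.65 to 7.96). The glycine transporter gene Slc6a9 was at 17.5 CPM, a fold of 1.70 (1.33 to 2.16). All 11 replication genes were past the rule downwards in cluster 5, beside 14.9% of genes, and in cluster 0, beside 8.86%. Pcna was the least low of them in cluster 5, at a fold of 0.40.

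In cluster 2 all 11 replication genes passed the rule upwards, beside 6.16% of genes. The list summed to 1493 CPM there, against 1121 in cluster 3 and 197 in cluster 5. Tk1, thymidine kinase, had a fold of 4.01 (3.77 to 4.26) in cluster 2. Cluster 3 had 7 of 11 replication genes past the rule upwards, beside 1.47% of genes, with Cdc6 at 6.01 times, while none of the 10 enzymes was past it there. Cluster 4 held the mitosis markers at 4331 CPM, against 133 to 1668 in the other clusters. Purine synthesis genes were highest in cluster 2 for 9 of 12, a share that was not counted over all genes. Ppat, the first committed step of purine synthesis, was the 1 past the rule (fold 1.59, 1.45 to 1.74). Glycine cleavage partners passed it in no cluster.

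**Figure D4:**
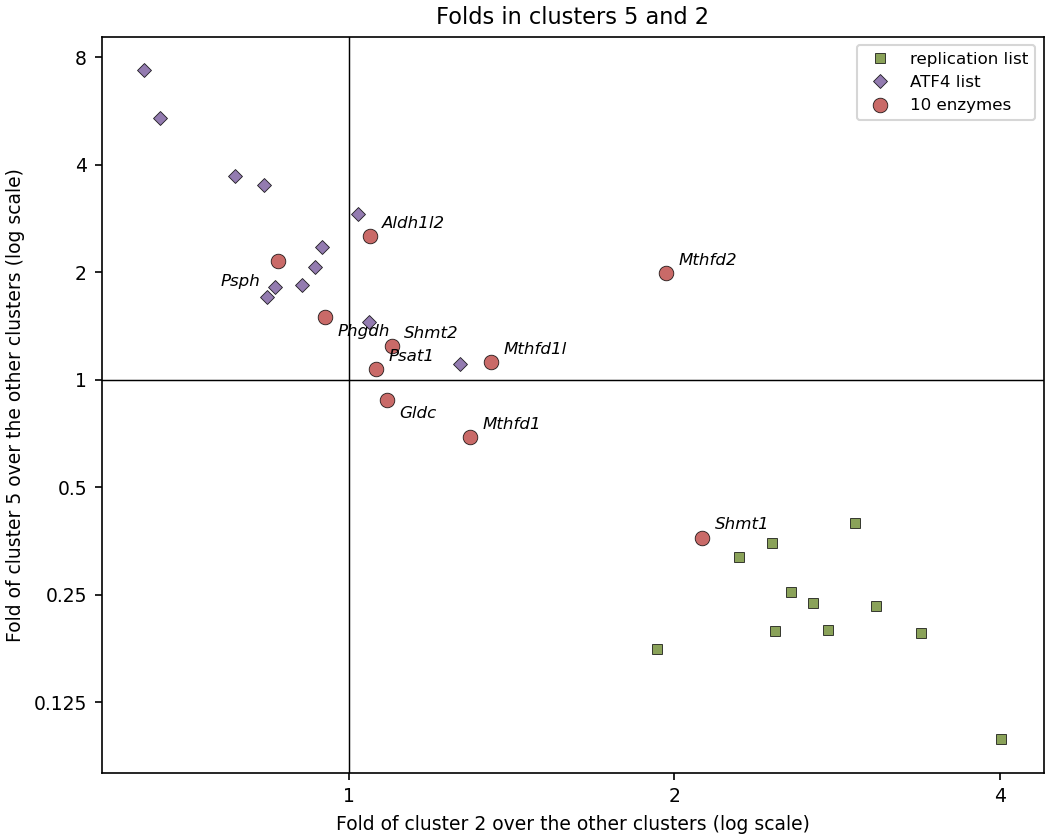
Fold of each gene in cluster 5 (vertical) and cluster 2 (horizontal) over the other clusters, on log scales, for the 10 enzymes (red circles, named), the ATF4 list (purple diamonds) and the replication list (green squares), each with at least 300 UMIs. Psph, Phgdh and Aldh1l2 lie in the upper part with the ATF4 list, Shmt1 lies at the lower right with the replication list, and Mthfd2 lies high on both axes at 1.99 and 1.97.

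For each enzyme, the genes most alike across the 6 clusters were taken by Pearson's r of log2 levels among the 9361 genes. These r are descriptions over 6 points that share 1 library, and with so many genes high values are bound to occur. Phgdh was nearest to Atf5 (r = 0.999), Rars and Cyb5r2, and Psph to Rars (0.995), Phgdh and Wdr83os. Shmt1 was nearest to Haus8 (0.999), Tk1 (0.998) and Msantd2. Mthfd2 was nearest to Gsr (0.987), Slc1a5 and Slc7a1, and Aldh1l2 to Phf10 (0.990), Rps15a and Cth. Mthfd1 was nearest to Mtf2, Get4 and Pou3f2, Mthfd1l to Rbpj, Coprs and Setd6, and Shmt2 to Pacsin2, Mars and Rheb. Psat1 was nearest to Pak1ip1 (0.995), Trmt112 and Zscan12, none over 1.2 times higher in any cluster, and Gldc to Itfg2, Parg and Lypla1.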

How the data were processed

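Bulk RNA of 4 NSPC cultures and 2 whole DGs and 1 pooled single-cell library were analysed. For bulk, the authors deposited unnormalized counts per gene. For single cells, the deposited values are natural logs of 1 plus a cell's UMIs scaled to 10000. Tools named in the submitters' processing notes are Subread and featureCounts, HISAT2 2.0.6, CASAVA 1.8.2, Seurat 3.1.0 and Cell Ranger 3.1.0. The notes also name a human build, GRCh38, whereas the symbols are mouse. Annotation here was GENCODE M21 (GRCm38).

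The test was edgeR's (4.0.16, under R 4.3.3; robust quasi-likelihood, TMM, default low-count filter, Benjamini-Hochberg over all genes, group or sex as the only term), and DESeq2 1.42.0 was an alternative. CPM use TMM library sizes. Standard errors were derived from the test, as the absolute log2 difference over the square root of its F statistic. Copies were found with BLAST 2.17.0. The fit was also run on simulated counts with few genes changed and a fixed dispersion. Most genes differed in these data, so that run does not bear on the calls here. UMIs were recovered with 100% of values within 0.01 of whole numbers. No cells were removed and doublets were not treated. Groups came from the labels. The enzymes, lists and tests were chosen with earlier results of these data known. Besides the 10 enzymes, the text names the 3 most abundant genes of each list, up to 3 called against most of the list, and single-cell leaders by cluster. Atf4, Gins2 and the markers are outside it. Some genes that this rule names are not reported here. Alternatives covered scaling, filters, length and GC, depth, overlapping genes, left-out libraries and pairing by name.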

Additional observations from a re-analysis of the deposited data

Results flagged for a closer look

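Psat1 in culture F2, at 373 CPM, stood apart from the other 3 cultures at 517 to 527 CPM: its gap to the nearest was 0.934 of the range, above Dixon's 95% critical value for 4 samples. Dld in culture M1, at 241 CPM, stood apart from the others at 185 to 193 CPM in the same way, with a gap of 0.847 of the range. Chance flags about 1 in 20 groups, and 41 groups of 4 cultures, the 10 enzymes and the named neighbours, were examined. Psat1 in culture F2 remained above both whole DG libraries.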

How the results depend on the processing

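All 10 enzymes passed the 0.05 threshold in the same direction under every alternative that kept them, 152 fits in all, and all 10 did so in the 2-fold test except Gldc with the length and GC trends removed. Leaving out every gene that overlaps another kept only Phgdh, so 1 enzyme was called in either test, with 5528 genes called in all and 33 of the companion genes beside 60 in the full table. Leaving out 1 library at a time gave 0 to 1 enzymes called between the sexes, the 1 being Aldh1l2 without culture F1. Of 483 alternative fits of the named companion genes, 465 kept direction and call, 14 lost the call and 4 turned direction: Atic to 0.20 and Atf4 to 0.69 with the length and GC trends removed, and Atf4 to 0.0507 without and 0.0510 with the block in the F1 and M2 libraries alone. The names F1 and M2 occur in both groups, and nothing in the labels says whether libraries of the same name share an animal. Deviations of libraries of the same name correlated at 0.04 and 0.05, which with only 2 tissue libraries cannot settle it. With the replicate block on those 4 libraries 13677 genes and 10 enzymes were called, and without it 14288 and 10. Across clusters, 5 enzyme and cluster pairs passed the 1.5-fold rule upwards, 6 by the mean of per-cell levels or against the median of the other clusters, 5 with cells thinned to 2000 UMIs or without the 64 cells over 20% mitochondrial, and 3 at 2-fold. Depth limits the single-cell levels of Aldh1l2 most, with 931 UMIs in all, and in cluster 5 that of Shmt1, with 40 UMIs.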
